A study of Homo sapiens with 10 samples.

Results

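The ERK feedback genes are a set of 10 genes, DUSP1, DUSP4, DUSP5, DUSP6, DUSP10, SPRY2, SPRY4, SPRED1, SPRED2 and PHLDA1. All 10 were found by symbol among the 20289 genes of the deposited table. All 10 passed the filter on low values, at least 1 FPKM in at least 2 libraries, which left 13077 genes for testing. DUSP4 and DUSP10 passed it only through CFPAC-1, where they were higher. RNA was sequenced from 2 human pancreatic adenocarcinoma cell lines after 24 h of treatment. CFPAC-1 received 10 µM imidazole ketone erastin (IKE) in 2 libraries or 0.1% DMSO, the solvent, in 2 libraries. PANC-1 received 1 µM IKE in 4 libraries or 0.1% DMSO in 2 libraries. IKE, a derivative of erastin, blocks the uptake of cystine by system xc- and can cause ferroptosis, in which cells die as their membrane lipids are oxidised in the presence of iron. Dead cells and debris were removed before collection, so each IKE library holds survivors. A change within cells and a change in which cells survived cannot be told apart, and neither can fewer cells with a transcript and less of it per cell. The lines cannot be compared at matched dose.

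ERK, the last kinase of the RAS, RAF and MEK cascade, carries growth factor signals to the nucleus, and its activity switches on genes whose products turn the cascade down again. The dual-specificity phosphatases (DUSP) remove phosphate from mitogen-activated protein kinases. Sprouty proteins (SPRY) act between growth factor receptors and RAF, and SPRED proteins bring the RAS inactivator neurofibromin to the membrane. Because their transcripts follow ERK activity, several of these genes serve as readouts of the pathway in tumours. Only RNA was measured here, so neither ERK phosphorylation nor protein levels are known.

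The promoter windows of the genes that rose in PANC-1, DUSP1, DUSP6 and SPRY2, are shown because these members moved together. RefSeq windows (GRCh38.p14) hold 250 bases before to 50 after a gene start, and windows of 8 of the 10 members were used. DUSP5 had none, and DUSP4 was left out because windows on its chromosome, 8, were not used for the members. Each window shown lies on the minus strand and is written 5′ to 3′ along the gene. The windows shown are chr5:172771146-172771445 for DUSP1, chr12:89352452-89352751 for DUSP6 and chr13:80341077-80341376 for SPRY2, the window of that gene closest to its start in GENCODE 29. The DUSP6 window's start lies 770 bases from the GENCODE 29 start. Capitals mark matches on either strand to TGACGT, the core of the cAMP response element, TGANTCA (AP-1), CCGGAA (ETS factors) or the CArG box of serum response factor.
DUSP1: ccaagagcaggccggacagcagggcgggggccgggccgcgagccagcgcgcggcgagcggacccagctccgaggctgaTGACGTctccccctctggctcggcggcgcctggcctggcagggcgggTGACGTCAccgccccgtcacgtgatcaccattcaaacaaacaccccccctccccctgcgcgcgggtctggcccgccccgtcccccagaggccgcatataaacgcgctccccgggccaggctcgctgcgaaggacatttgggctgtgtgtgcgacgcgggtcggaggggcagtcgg
DUSP6: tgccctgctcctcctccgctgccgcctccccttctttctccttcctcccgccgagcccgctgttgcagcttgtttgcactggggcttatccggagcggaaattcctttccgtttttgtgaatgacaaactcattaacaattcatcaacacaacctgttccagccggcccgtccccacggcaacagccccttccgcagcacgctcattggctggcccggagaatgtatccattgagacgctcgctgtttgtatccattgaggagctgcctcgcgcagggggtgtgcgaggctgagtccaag
SPRY2: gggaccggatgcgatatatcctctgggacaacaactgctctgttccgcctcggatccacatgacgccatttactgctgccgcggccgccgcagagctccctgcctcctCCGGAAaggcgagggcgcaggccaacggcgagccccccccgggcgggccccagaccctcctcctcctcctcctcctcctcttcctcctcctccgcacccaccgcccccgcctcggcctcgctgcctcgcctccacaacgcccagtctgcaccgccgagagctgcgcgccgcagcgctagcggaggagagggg
The DUSP1 window held 3 matches to TGACGT, of which 2 overlap on opposite strands as a palindrome. Of 35116 RefSeq windows, 7.98% held at least 1 such match. The SPRY2 window held 1 match to CCGGAA, found in 17.2% of windows. The DUSP6 window held 0 matches to any of the 4 motifs, and TGANTCA (7.71% of windows) and the CArG box (1.29%) were in none of the windows shown. The windows share no motif of the 4, and a match is only a stretch of letters.

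Levels are in FPKM, which divides the fragments of a gene by its length and by the total mapped in the library. Changes are log2 fold changes of FPKM + 1, which understate the change of genes with low values, and a gene was called at a limma adjusted p under 0.05 over all tested genes. Ratios of mean FPKM are given beside some of them. The libraries summed to between 405937 and 472665 FPKM and had 11604 to 12248 genes at 1 FPKM or more. Their read depth is unknown. All 8 ductal epithelium markers (keratins, EPCAM, MUC1, SOX9, CDH1) were at 1 FPKM or more in both lines. Of 5 leukocyte markers, PTPRC, CD3E and MS4A1 stayed below 1 FPKM in every library, while CD68 had 23.98 to 46.26 FPKM in all libraries and CD14 had 0.4 to 1.25 FPKM in PANC-1 and 11.15 to 14.67 FPKM in CFPAC-1. Of 4 endothelial markers VWF and CDH5 stayed below 1 FPKM, while PECAM1 had 0.03 to 0.08 FPKM in PANC-1 and 18.45 to 21.29 FPKM in CFPAC-1. Of 6 fibroblast markers COL1A1 led, at 17.94 to 24.94 FPKM in PANC-1 and 3.56 to 5.64 FPKM in CFPAC-1. The part of these genes in the results was not tested. Gene positions follow GENCODE 29 on GRCh38.

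A first question was how the feedback genes differed in PANC-1 cells that survived 1 µM IKE. Of the 10 genes 3 rose, DUSP6, DUSP1 and SPRY2, 0 fell and 7 were not called, while 2.38% of all tested genes were called, 1.21% as higher and 1.17% as lower. Their median log2 fold change was 0.27, against -0.01 over all tested genes. In 6 members every IKE library lay above both DMSO libraries, against 12.3% of tested genes, and in 0 members did every IKE library lie below, against 13.6%. The members were chosen with earlier results of these data known, so the shares over all genes give a scale and are no test of the set. The count of calls depended on single libraries. Without PANC-1 DMSO replicate 1 the count was 0, without PANC-1 IKE replicate 3 it was 5, and it was 1 without a single CFPAC-1 library, PANC-1 DMSO replicate 2 or IKE replicates 1 or 4.

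DUSP6 encodes the cytoplasmic phosphatase that acts mainly on ERK (ENSG00000139318, chromosome 12, 89347232 to 89353271, minus strand). It had 10.05, 9.74, 7.48 and 9.43 FPKM in PANC-1 IKE replicates 1 to 4, against 4.94 and 4.99 FPKM in the DMSO libraries. The groups did not overlap, and the lowest IKE library was still well above both controls. The mean was 9.18 ± 1.16 FPKM with IKE (SD, n = 4) and 4.97 ± 0.0354 FPKM with DMSO (SD, n = 2), a ratio of 1.85. Its log2 fold change was 0.76 (SE 0.10, adjusted p = 0.00364, limma), and it lost its call only without PANC-1 DMSO replicate 1 (adjusted p = 0.0547), a fit that leaves 1 library in that arm.

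DUSP1 encodes a nuclear phosphatase of p38, JNK and ERK and is an immediate early gene (ENSG00000120129, chromosome 5, 172768090 to 172771195, minus strand). It had 29.29, 26.75, 18.61 and 23.32 FPKM in PANC-1 IKE replicates 1 to 4, against 14.15 and 15.12 FPKM with DMSO. All IKE libraries were above both controls, with replicate 3 nearest to them. The log2 fold change was 0.69 (SE 0.14, adjusted p = 0.0326, limma) and the ratio of means 1.67. Dropping PANC-1 IKE replicate 3 kept this call, and dropping any other single library ended it (adjusted p from 0.0513 to 0.245), while the value stayed between 0.60 and 0.81. The call was also lost with no low-value filter (adjusted p = 0.0764) and with replicates 3 and 4 as the only IKE libraries (adjusted p = 0.0627). Leaving out a CFPAC-1 library does not touch the PANC-1 values of DUSP1.

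Among the other phosphatases, DUSP5, a nuclear phosphatase for ERK (ENSG00000138166, chromosome 10, 110497838 to 110511544, plus strand), had 17.59, 12.93, 12.81 and 20.69 FPKM in PANC-1 IKE replicates 1 to 4, against 10.21 and 10.21 FPKM with DMSO. The IKE libraries split into a higher and a lower pair, all above the controls. Its log2 fold change of 0.57 was not called (SE 0.16, adjusted p = 0.0839, limma), but it was called without PANC-1 IKE replicate 2 (adjusted p = 0.0439) or replicate 3 (adjusted p = 0.0477). DUSP10, which acts on p38 and JNK, had 0.81, 0.54, 1.03 and 0.76 FPKM with IKE and 0.63 and 0.65 FPKM with DMSO, and these groups overlapped. DUSP4, a nuclear phosphatase of ERK and JNK, was at 0.19, 0.17, 0.09 and 0.17 FPKM with IKE and at 0.13 and 0.08 FPKM with DMSO, so it was barely detected in PANC-1 under either treatment.

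SPRY2, a brake on receptor tyrosine kinase signalling (ENSG00000136158, chromosome 13, 80335976 to 80340951, minus strand), had 16.2, 14.87, 12.96 and 15 FPKM in PANC-1 IKE replicates 1 to 4, against 10.4 and 10.92 FPKM with DMSO. The groups were separate, and the 4 IKE libraries lay within a narrow range. The log2 fold change was 0.43 (SE 0.09, adjusted p = 0.0377, limma) and the ratio of means 1.38. Dropping PANC-1 IKE replicate 2 or 3 kept the call, and dropping any other single library ended it (adjusted p from 0.0506 to 0.267). The call was also lost with no low-value filter (adjusted p = 0.0614), with the replicate number as a block (adjusted p = 0.0574), in a fit of PANC-1 alone (adjusted p = 0.0585) and with replicates 3 and 4 as the only IKE libraries (adjusted p = 0.0862).

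SPRY4, which acts at the same level (ENSG00000187678, chromosome 5, 142310427 to 142326455, minus strand), had 22.91, 20.09, 18.26 and 24.95 FPKM in PANC-1 IKE replicates 1 to 4, against 17.18 and 15.82 FPKM with DMSO. The groups did not overlap, but the lowest IKE library came close to the higher control. Its log2 fold change of 0.36 was not called (SE 0.11, adjusted p = 0.106, limma), though it was called without PANC-1 IKE replicate 3 (adjusted p = 0.0400).

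SPRED2 had 43.32, 38.36, 38.42 and 42.05 FPKM in PANC-1 IKE replicates 1 to 4, against 35.63 and 35.75 FPKM with DMSO, a separation of small size (log2 fold change 0.18, SE 0.09, adjusted p = 0.339, limma). SPRED1 overlapped between treatments, with 9.85 to 12.69 FPKM with IKE and 11.38 to 12.03 FPKM with DMSO. PHLDA1, a pleckstrin homology-like protein whose transcript is used in signatures of ERK output, had 69.27 to 80.6 FPKM with IKE and 76.88 to 82.94 FPKM with DMSO. It was the most abundant member in PANC-1 under both treatments, and the 95% confidence interval of its log2 fold change ran from -0.24 to 0.05.

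**Figure D1:**
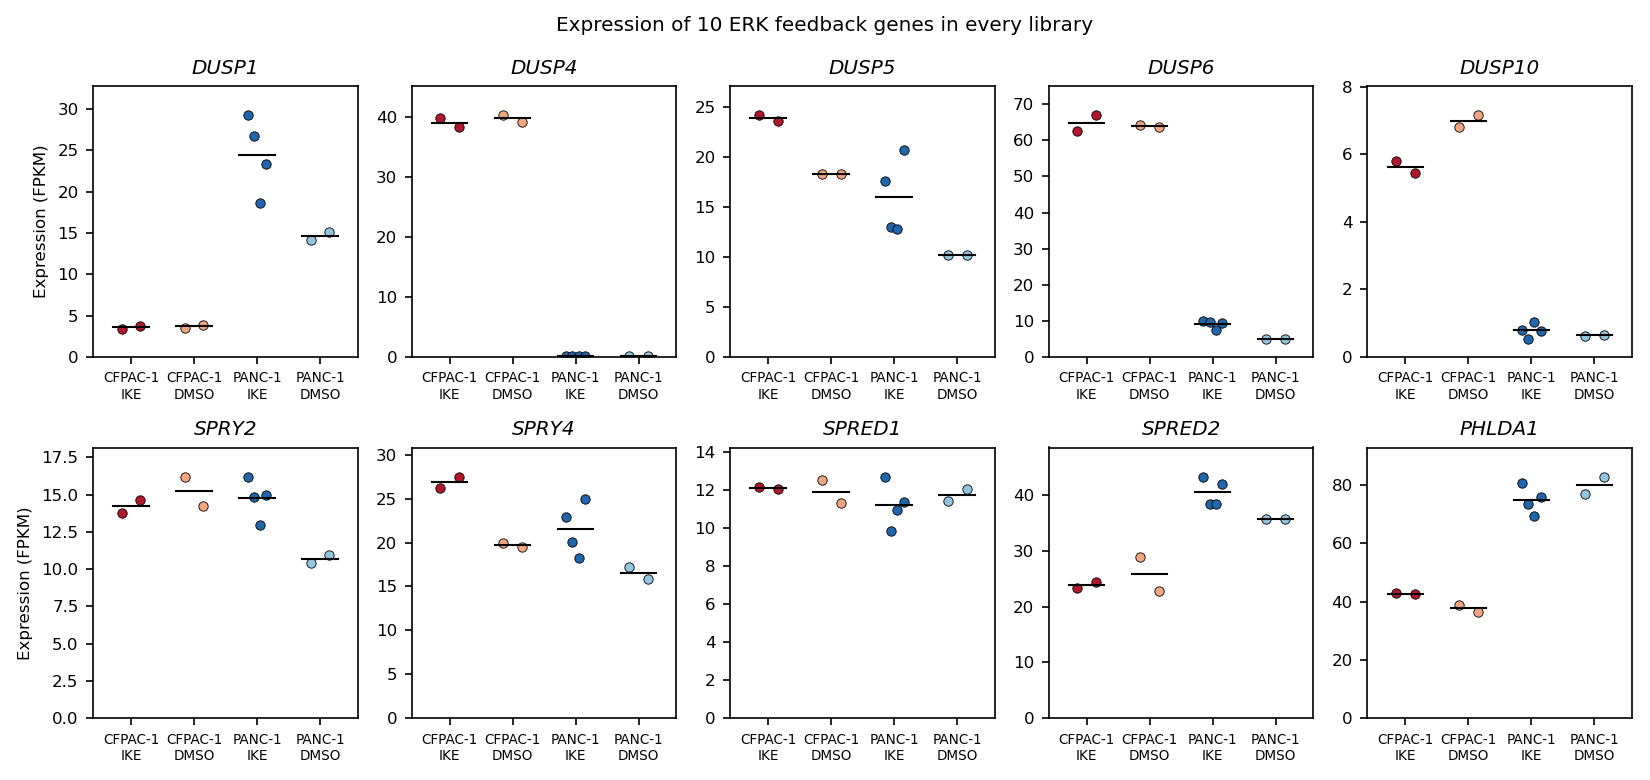
Expression in FPKM (vertical axes, each from 0) of the 10 ERK feedback genes. Each point is a library, the horizontal lines are group means, and groups run from CFPAC-1 IKE to PANC-1 DMSO. DUSP6 averaged 9.18 FPKM in PANC-1 IKE and 4.97 FPKM in PANC-1 DMSO, while in CFPAC-1 its IKE and DMSO means were 64.8 and 64.0 FPKM.

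PANC-1 IKE replicate 3 had the lowest value of the 4 IKE libraries in 7 of the 10 members, while it was lowest in 27.0% of all tested genes. Replicate 1 was the highest in 7 members. Replicate 3 was also the lowest in 11 of the 19 tested ERK-induced transcripts (57.9%), a list described below. It had the highest share of mitochondrially encoded mRNA of any library, 5.27% of FPKM against 2.65% to 3.76% in the others, and the part of this in the results was not tested. Without it the 3 called members kept their calls, with log2 fold changes of 0.85 for DUSP6 (adjusted p = 2.60e-04, limma), 0.81 for DUSP1 (adjusted p = 0.00529) and 0.49 for SPRY2 (adjusted p = 0.0178). DUSP5 and SPRY4 were then called too. With replicates 3 and 4 as the only IKE libraries, 1 member was called.

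**Figure D2:**
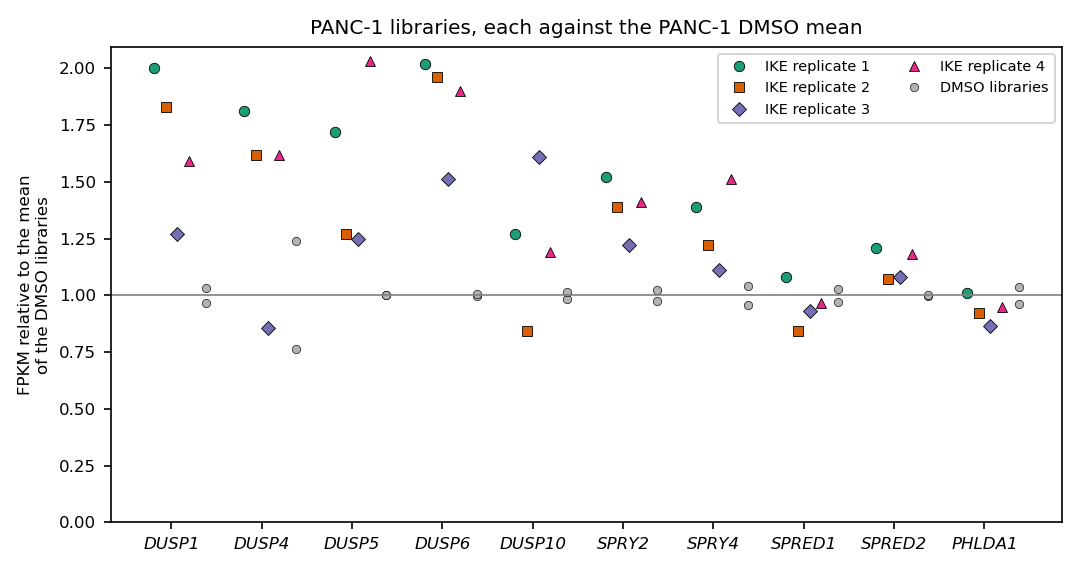
FPKM of each PANC-1 library divided by the mean of the PANC-1 DMSO libraries (vertical axis) for the 10 ERK feedback genes (horizontal axis). Coloured symbols are the 4 IKE replicates and grey points the 2 DMSO libraries. For DUSP6 the IKE libraries stood at 1.51 to 2.02, with replicate 3 the lowest.

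The second comparison asked the same of CFPAC-1 cells that survived 10 µM IKE. With limma 0 of the 10 genes were called, where 1.32% of all tested genes were (0.864% higher, 0.459% lower). At an unadjusted p under 0.05 SPRY4 and PHLDA1 were higher and 0 were lower, where of 13077 tested genes 850 were higher and 929 lower. The median log2 fold change of the members was 0.00, as it was over all tested genes. In 3 members, DUSP5, SPRY4 and PHLDA1, both IKE libraries lay above both DMSO libraries, as in 23.0% of tested genes, and in 1, DUSP10, both lay below, as in 23.9%.

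DUSP6, the most abundant member in CFPAC-1, had 62.65 and 67.03 FPKM with IKE, against 64.38 and 63.64 FPKM with DMSO. The IKE libraries bracketed the controls, and the log2 fold change was 0.02, with a 95% confidence interval from -0.23 to 0.27. DUSP1 had 3.38 and 3.74 FPKM with IKE, against 3.52 and 3.84 FPKM with DMSO. It was the least abundant member in this line, and its interval ran from -0.40 to 0.33. SPRY2 overlapped as well, with 13.74 and 14.66 FPKM with IKE and 16.21 and 14.23 FPKM with DMSO. These intervals leave room for changes of moderate size, so they do not show that the genes were unaffected.

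SPRY4 stood furthest from its controls in CFPAC-1, with 26.15 and 27.51 FPKM with IKE against 19.93 and 19.48 FPKM with DMSO. Its log2 fold change of 0.43 (95% confidence interval 0.16 to 0.70, ratio of means 1.36) was not called in the fit of all libraries (adjusted p = 0.138, limma), but it was called in a fit of CFPAC-1 alone (adjusted p = 0.0323). DUSP5 had 24.17 and 23.59 FPKM with IKE against 18.23 and 18.32 FPKM with DMSO, also separate (log2 fold change 0.37, SE 0.18, adjusted p = 0.412). PHLDA1 had 42.93 and 42.64 FPKM with IKE against 38.86 and 36.54 FPKM with DMSO (0.18, adjusted p = 0.347).

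DUSP10 was below its controls in CFPAC-1, with 5.82 and 5.46 FPKM with IKE against 6.82 and 7.17 FPKM with DMSO, and was not called (log2 fold change -0.27, SE 0.13, adjusted p = 0.387, limma). DUSP4 had 39.84 and 38.2 FPKM with IKE and 40.27 and 39.12 FPKM with DMSO, which overlapped. SPRED1 (12.15 and 12.02 FPKM with IKE, 12.51 and 11.28 FPKM with DMSO) and SPRED2 (23.31 and 24.41 FPKM with IKE, 28.83 and 22.86 FPKM with DMSO) overlapped too, the last with a wide spread between controls.

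**Figure D3:**
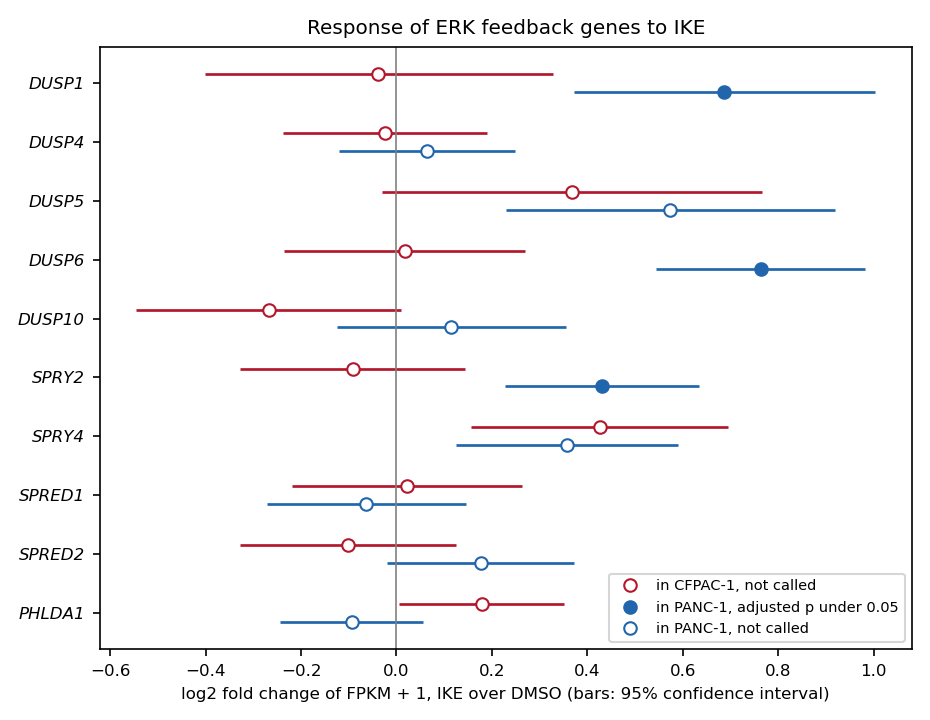
log2 fold change of FPKM + 1, IKE over DMSO (horizontal axis), of the 10 ERK feedback genes in CFPAC-1 (red) and PANC-1 (blue). Bars are 95% confidence intervals, and filled points have a limma adjusted p under 0.05. The filled points are DUSP1, DUSP6 and SPRY2 in PANC-1, at 0.69, 0.76 and 0.43, while SPRY4 lay at 0.43 in CFPAC-1 and 0.36 in PANC-1, neither called.

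The response was then compared between the lines, as the difference of the log2 fold changes. A call in PANC-1 alone does not make the lines differ, and with limma 0 of the 10 members were called for this difference, where 0.336% of all tested genes were (0.107% higher, 0.229% lower). At an unadjusted p under 0.05, 4 members were higher in PANC-1 and 1 was lower, where 1615 of 13077 tested genes passed in either direction. The 4 include DUSP10, which had 0.54 to 1.03 FPKM in PANC-1 with IKE and passed the low-value filter only through CFPAC-1. DUSP6 came closest, at 0.75 (PANC-1 minus CFPAC-1, SE 0.15, 95% confidence interval 0.41 to 1.08, adjusted p = 0.0801), and it was called without PANC-1 IKE replicate 3 (adjusted p = 0.00903). The difference was 0.72 for DUSP1 (SE 0.22, adjusted p = 0.219) and 0.52 for SPRY2 (SE 0.14, adjusted p = 0.176). For SPRY4 it was -0.07, with an interval from -0.42 to 0.29. Line and dose cannot be told apart here, since PANC-1 received 1 µM and CFPAC-1 10 µM IKE.

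DUSP6 differed between the lines without drug by more than between treatments within either line. In PANC-1 with DMSO, against CFPAC-1 with DMSO, 3 members were higher and 5 lower, 8 of 10 called, where 78.7% of all tested genes were called (43.4% higher, 35.2% lower), so the count is near the background and the size of single differences is what can be read. DUSP4 and DUSP10 are among the 5, and since they passed the filter only through CFPAC-1 they had to differ, so their levels are given with no test. Both PANC-1 libraries lay above both CFPAC-1 libraries in 3 members, against 49.0% of tested genes, and below them in 6, against 40.3%. The 6 also include DUSP4 and DUSP10, so the filter favoured that count. DUSP6 averaged 4.97 ± 0.0354 FPKM in PANC-1 and 64.0 ± 0.523 FPKM in CFPAC-1 (SD, n = 2 each), a log2 fold change of -3.45 (SE 0.11, adjusted p = 1.57e-10, limma). DUSP4 averaged 0.105 ± 0.0354 FPKM in PANC-1 and 39.7 ± 0.813 FPKM in CFPAC-1, and DUSP10 averaged 0.640 ± 0.0141 FPKM in PANC-1 and 6.995 ± 0.247 FPKM in CFPAC-1. DUSP5 (log2 fold change -0.78, adjusted p = 0.00193) and SPRY2 (-0.47, adjusted p = 0.00161) were lower in PANC-1 by less than DUSP6. SPRY4 was not called (-0.24, adjusted p = 0.0877), but it was called as lower under quantile normalization (adjusted p = 0.0278) and median-ratio scaling (adjusted p = 0.0143). Median-ratio scaling moves the median of all genes in this comparison to -0.01, against 0.12 as deposited.

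DUSP1, PHLDA1 and SPRED2 ran the other way. DUSP1 averaged 14.6 ± 0.686 FPKM in PANC-1 with DMSO and 3.68 ± 0.226 FPKM in CFPAC-1 with DMSO (log2 fold change 1.74, SE 0.17, adjusted p = 1.51e-06, limma). PHLDA1 averaged 79.9 ± 4.29 FPKM in PANC-1 and 37.7 ± 1.64 FPKM in CFPAC-1 (1.06, adjusted p = 1.58e-07), and SPRED2 was higher in PANC-1 by 0.46 (adjusted p = 0.00153). SPRED1, at 11.7 ± 0.460 FPKM in PANC-1 and 11.9 ± 0.870 FPKM in CFPAC-1, overlapped between the lines (-0.02, 95% confidence interval -0.26 to 0.22). The 5 phosphatase genes summed to 57.93, 50.13, 40.02 and 54.37 FPKM in PANC-1 IKE replicates 1 to 4 and to 30.06 and 31.05 FPKM in PANC-1 with DMSO, against 135.86 and 138.02 FPKM in CFPAC-1 with IKE and 133.22 and 132.09 FPKM in CFPAC-1 with DMSO. DUSP6 made up 16.1% to 19.4% of this sum in PANC-1 libraries of either treatment, and 46.1% to 48.6% in CFPAC-1 libraries.

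In order of mean level, DUSP6 (64.0 FPKM) led in CFPAC-1 with DMSO, followed by DUSP4 (39.7 FPKM) and PHLDA1 (37.7 FPKM), and DUSP1 came last. DUSP4 and PHLDA1 did not overlap there, at 39.12 to 40.27 and 36.54 to 38.86 FPKM, while SPRED2 in the next place ranged from 22.86 to 28.83 FPKM. In PANC-1 with DMSO the order began with PHLDA1 (79.9 FPKM) and SPRED2 (35.7 FPKM), followed by SPRY4 (16.5 FPKM) and DUSP1 (14.6 FPKM). SPRED1 (11.7 FPKM), SPRY2 (10.7 FPKM) and DUSP5 (10.2 FPKM) were next, of which SPRY2 and DUSP5 lay within 1 FPKM of each other, and DUSP6, DUSP10 and DUSP4 came last.

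Of 10 close relatives outside the set 9 were tested, and in PANC-1 with IKE 1 rose, 0 fell and 8 were not called, where 1.21% of all tested genes rose and 1.17% fell. The risen gene was DUSP16, a phosphatase of JNK and p38, with 4.87, 6.0, 4.87 and 5.51 FPKM in IKE replicates 1 to 4 against 3.7 and 3.64 FPKM with DMSO (an adjusted p of 0.0419 with limma at a log2 fold change of 0.43). Its call held only when PANC-1 IKE replicate 2 or 3 was the library dropped, and ended with any other (adjusted p from 0.0511 to 0.239). It also ended with no low-value filter, a pseudocount of 0.1, the replicate block, a fit of PANC-1 alone or either pair of IKE replicates (adjusted p from 0.0545 to 0.111). SPRY1, the most abundant Sprouty gene in both lines, had 27.68, 26.81, 20.57 and 25.94 FPKM with IKE and 23.08 and 23.19 FPKM with DMSO in PANC-1, which overlapped. DUSP7 (0.20), DUSP8 (0.19), PHLDA2 (0.23), PHLDA3 (0.24), SPRED3 (0.14), SPRY3 (-0.02) and DUSP9 (-0.13) were not called in PANC-1 (log2 fold changes in parentheses), and DUSP2 was too low to test. In CFPAC-1 with IKE 0 of the 9 were called with limma, where 1.32% of all tested genes were. At an unadjusted p under 0.05, 1 of the 9 was higher and 0 lower, where of 13077 tested genes 850 were higher and 929 lower.

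Other transcripts known to be induced by ERK rose in PANC-1 with IKE in 5 of 19 tested cases, 0 fell and 14 were not called, where 1.21% of all tested genes rose and 1.17% fell. Their median log2 fold change was 0.23, against -0.01 over all tested genes, and every IKE library lay above both controls in 10 of them, against 12.3% of all tested genes. Both values include FOSB, with 1.14, 0.68, 1.35 and 1.21 FPKM with IKE against 0.53 and 0.63 FPKM with DMSO. FOSB passed the filter only through PANC-1 with IKE, where it was higher, so the filter favoured its place among the 10. The list was chosen with earlier results of these data known, so the shares over all genes are no test of it. EGR1, an immediate early transcription factor, had 3.27, 2.99, 1.75 and 3.36 FPKM with IKE against 0.67 and 0.63 FPKM with DMSO (log2 fold change 1.20, SE 0.16, adjusted p = 0.00413, limma). The AP-1 subunit gene FOSL1 (0.62, adjusted p = 0.00769), MYC (0.44, adjusted p = 0.0189) and the small MAF factor gene MAFF (0.90, adjusted p = 0.0419) rose, as did KLF6 (0.53, adjusted p = 0.0455), which is named here after its value was seen. Ratios of means were 4.37 for EGR1 and 2.6 for MAFF, both low genes in PANC-1. The next counts are of called genes among the 19. The count was 0 to 6 with single libraries left out. It was 3 without a single CFPAC-1 library or PANC-1 IKE replicates 1 or 4, 2 without PANC-1 DMSO replicate 2, and 0 without PANC-1 DMSO replicate 1, where EGR1 (adjusted p = 0.0547) and FOSL1 (adjusted p = 0.138) lost their calls, and MYC, MAFF and KLF6 also lost theirs without DMSO replicate 2. The count was 3 with no low-value filter, with no intensity trend in the variance or in a fit of PANC-1 alone, and 2 with replicates 1 and 2 as the only IKE libraries. FOSL1 lost its call with the replicate block (adjusted p = 0.0666) and with replicates 1 and 2 alone (adjusted p = 0.0519). FOS had 1.18, 0.98, 0.56 and 2.14 FPKM with IKE against 0.53 and 0.35 FPKM with DMSO and was not called (adjusted p = 0.176).

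In CFPAC-1 with IKE, where 0.864% of all tested genes rose and 0.459% fell, 1 of the 19 ERK-induced transcripts rose and 0 fell. This was MYC, with 52.98 and 52.16 FPKM with IKE against 39.82 and 33.68 FPKM with DMSO (log2 fold change 0.51, SE 0.09, adjusted p = 0.0206, limma), a call that ended when CFPAC-1 DMSO replicate 2 or either CFPAC-1 IKE library was dropped (adjusted p from 0.133 to 0.172). Without PANC-1 IKE replicate 4 the count was 2. HBEGF, a ligand of the EGF receptor, had 4.34 and 4.54 FPKM with IKE against 2.03 and 2.0 FPKM with DMSO and was not called (0.85, adjusted p = 0.0962). The median log2 fold change of the list was 0.12. For the difference between lines 0 of the 19 were called with limma, and 1 was called without PANC-1 IKE replicate 3. For this difference 6 were higher in PANC-1 and 0 lower at an unadjusted p under 0.05, where 1615 of 13077 tested genes passed in either direction.

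**Figure D4:**
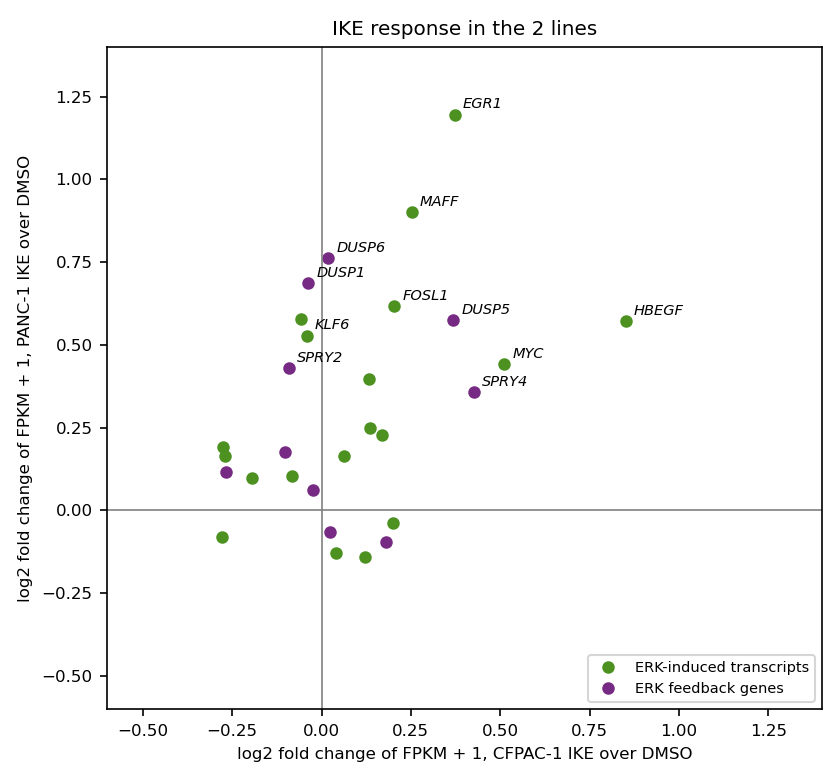
log2 fold change of FPKM + 1 with IKE in CFPAC-1 (horizontal axis) and in PANC-1 (vertical axis) for the 10 ERK feedback genes (purple) and 19 ERK-induced transcripts (green), with selected genes named. DUSP6 and DUSP1 lie at 0.76 and 0.69 in PANC-1 and near 0 in CFPAC-1, while MYC lies at 0.44 in PANC-1 and 0.51 in CFPAC-1.

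Among brakes that act on receptors, where 0.864% of all tested genes rose in CFPAC-1 with IKE and 1.21% in PANC-1, 1 of 8 genes rose in CFPAC-1 and 0 in PANC-1. The gene was ERRFI1, an inhibitor of the EGF receptor, with 66.07 and 64.48 FPKM with IKE against 39.32 and 37.38 FPKM with DMSO (log2 fold change 0.75, SE 0.08, adjusted p = 3.97e-04, limma), a call kept with each library left out. In PANC-1 ERRFI1 had 178.18, 157.46, 161.76 and 182.3 FPKM with IKE against 148.87 and 142.29 FPKM with DMSO, separate groups that were not called (0.22, adjusted p = 0.122). For the difference between lines 0 of the 8 brakes were called, where 0.336% of all tested genes were. ERRFI1 stood at -0.53 (PANC-1 minus CFPAC-1, SE 0.10, adjusted p = 0.0656, limma). With a filter of at least 5 FPKM in at least 2 libraries, 1 of 7 brakes was called for this difference, as lower. At an unadjusted p under 0.05, 1 brake was higher and 0 were lower in PANC-1, where of 13077 tested genes 1094 were higher and 1209 lower.

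The kinases of the cascade itself gave no calls with IKE. Of 20 genes from growth factor adaptors through RAS and RAF to ERK, 0 were called in PANC-1 with limma (2 higher and 1 lower at an unadjusted p under 0.05), and 0 in CFPAC-1 (0 higher and 1 lower). Over all tested genes 2.38% were called in PANC-1 and 1.32% in CFPAC-1. At an unadjusted p under 0.05, of 13077 genes 1094 were higher and 1209 lower in PANC-1, and 850 higher and 929 lower in CFPAC-1. The median log2 fold changes of the 20 genes were -0.03 in PANC-1 and -0.01 in CFPAC-1. Without PANC-1 IKE replicate 3, 1 of them was called in PANC-1. Of 16 genes of the p38 and JNK cascades, on which DUSP1 and DUSP10 act, 1 rose in PANC-1 and 0 fell, where 1.21% of all tested genes rose and 1.17% fell, and 2 rose without IKE replicate 3. The risen gene was JUN, with 23.43, 18.84, 17.02 and 22.01 FPKM with IKE against 12.12 and 12.69 FPKM with DMSO (0.66, SE 0.11, adjusted p = 0.0144), and dropping either PANC-1 DMSO library ended that call (adjusted p from 0.0886 to 0.157). In CFPAC-1 0 of these 16 were called, and 0 were at an unadjusted p under 0.05.

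Without drug, the cascade genes also differed between the lines, as most genes did. PANC-1 with DMSO had more HRAS (2.46, adjusted p = 1.99e-09, limma) and SHC1 (1.39, adjusted p = 3.31e-08) than CFPAC-1 with DMSO, and less of the RAS inactivator gene RASA1 (-2.51, adjusted p = 1.60e-10), as log2 fold changes. Of the 16 genes of the p38 and JNK cascades, 10 were higher and 5 lower in PANC-1, 15 in all, against 78.7% of all tested genes called. The total was 9 under median-ratio scaling and 9 without PANC-1 DMSO replicate 1. MAPK11, a p38 kinase gene, was higher (1.38, adjusted p = 1.34e-06), and the JNK and p38 activator gene MAP3K5 was lower (-1.002, adjusted p = 1.08e-06). MAP2K6 (-4.21, adjusted p = 1.53e-10) and MAPK13 (-3.74, adjusted p = 1.03e-10) were lower in PANC-1 by more, with ratios of means of 0.0395 and 0.0387. Of the 19 tested transcripts induced by ERK, 6 were higher and 11 lower, against 43.4% and 35.2% of all tested genes. Those named have the smallest p, not the largest change. PLAUR (-2.32, adjusted p = 8.28e-09) and ETV4 (-1.72, adjusted p = 3.37e-08) were lower, while FOSL1 (1.77, adjusted p = 3.40e-08) was higher. SPHK1 is also among the 6. SPHK1 had 5.01 and 4.45 FPKM in PANC-1 with DMSO and 0.48 and 0.6 FPKM in CFPAC-1 with DMSO, given with no test since it passed the filter only through PANC-1. Of the 9 tested relatives 5 were higher and 4 lower, but DUSP8, DUSP9 and SPRY3, all higher, passed the filter only through PANC-1. SPRY1 was lower in PANC-1 (-1.29, adjusted p = 8.86e-07) and PHLDA2 higher (2.53, adjusted p = 1.56e-08).

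The genes closest in pattern were found by Euclidean distance over 3 log2 fold changes, IKE in each line and PANC-1 over CFPAC-1 with DMSO, among all tested genes. For DUSP6 they were FOS (distance 0.20), ELOVL7 (0.30), SLC2A1 (0.44), PLEKHA6 (0.45) and ALDH2 (0.46). FOS was low in PANC-1, at 0.35 to 2.14 FPKM, where log2(FPKM + 1) understates changes. By ratio of means, IKE over DMSO in PANC-1, FOS stood at 2.76 and DUSP6 at 1.85. For PANC-1 over CFPAC-1 with DMSO these ratios were 0.0296 and 0.0776. For DUSP1 they were FOSL1 (0.25), LAYN (0.32), MERTK (0.32), ENSG00000257411 (0.37) and FAM219A (0.37).

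Several members overlap other genes in GENCODE 29. DUSP1, DUSP6, SPRY4 and PHLDA1 each overlap at least 1 antisense gene, and SPRED2 holds an intronic transcript. The libraries keep the strand, but the sources used here do not say whether the authors' quantification used it, so reads of such partners could be part of these values.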

How the data were processed

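RNA of 10 libraries was measured from the cell lines CFPAC-1 and PANC-1. Per the labels' protocols, total RNA was depleted of rRNA, primed at random and made into libraries with a digested second strand. The authors deposited FPKM per gene with 2 decimals. Per the submitters' processing notes, StringTie 1.3.4, HISAT2 2.1.0, Bowtie2 2.2.8, fastp 0.18.0 and DESeq2 were used with GRCh38, in roles the sources used here do not state. A further 9 columns are empty. Counts were not used here, so depth is unknown. Whether the bioreplicates of the labels came from separate cultures is not stated, and a p-value then covers only the spread between these libraries, which may be technical.

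Genes with at least 1 FPKM in 2 libraries were fitted as log2(FPKM + 1) with limma 3.58.1 in R 4.3.3, with 4 group means over all 10 libraries and a variance prior that follows expression. Tests were two-sided, with Benjamini-Hochberg adjustment over 13077 genes and a threshold of 0.05. The fit was tested on simulated data. Named genes are the members, the relatives, and up to 4 called genes with the smallest p per list and comparison. The members and lists were chosen with earlier results of these data known. Alternatives were other filters, pseudocount and scaling, a replicate block, no intensity trend, separate fits of each line, pairs of PANC-1 IKE replicates and each library left out.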

Additional observations from a re-analysis of the deposited data

Results flagged for a closer look

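In PANC-1 with IKE, ETV4, an ETS factor gene induced by ERK, had 5.02, 5.1, 5.06 and 6.0 FPKM in replicates 1 to 4, and replicate 4 stood apart from the others. The gap to its nearest neighbour was 0.918 of the whole range, above Dixon's 95% critical value for 4 samples. Chance gives such a gap in about 1 in 20 groups, and 35 genes were checked. ETV4 was not called with IKE in either line.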

How the results depend on the processing

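The count of called members in CFPAC-1 with IKE was 0 under each alternative over all libraries and with each library left out, and 1 (SPRY4) in a fit per cell line. In PANC-1 with IKE it was 3, and 1 with no low-value filter or with PANC-1 IKE replicates 3 and 4 alone, and it ranged from 0 to 5 with single libraries left out. Fits without a PANC-1 DMSO library leave 1 in that arm, which is assumed to vary like the other groups. For the difference between lines it was 0, and 1 (DUSP6) with the replicate block (adjusted p = 0.0431) or with PANC-1 IKE replicates 1 and 2 alone (adjusted p = 0.0198), and 0 to 1 with single libraries left out. For the lines with DMSO it was 8, and 8 to 9 under each alternative. With the replicate block 2 members were called in PANC-1 with IKE, 0 in CFPAC-1 and 9 between lines with DMSO. Whether the replicate numbers pair the samples is not stated. Deviations of same-numbered libraries correlated at -0.027 to 0.118. This cannot settle pairing, since in a group of 2 libraries the deviations mirror each other. Over all genes, called genes numbered 311 in PANC-1 with IKE, but 149 with the replicate block, 189 in a fit per cell line, 172 with PANC-1 IKE replicates 1 and 2 alone and 471 with replicates 3 and 4 alone, and 42 to 504 with single libraries left out. In CFPAC-1 they numbered 173, but 262 under quantile normalization, and 80 to 256 with single libraries left out. For the difference they numbered 44, but 15 with the replicate block, 17 with PANC-1 IKE replicates 1 and 2 alone and 69 with replicates 3 and 4 alone, and 13 to 62 with single libraries left out. The cause of these changes was not tested. Over the alternatives of all 10 members, 741 values kept their side of the threshold, 24 lost and 13 gained a call, and no called value changed sign. The fit per cell line tested 8 members in PANC-1 and gives no value for the comparisons between lines. With FPKM alone, counting error cannot be given for low genes such as DUSP4 in PANC-1.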
